A study of Penicillium oxalicum with 6 samples.

Results

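The genes described here were abundant in the Ku70 strain of Penicillium oxalicum and at least 2-fold lower in MuPOX05503; identifiers listed as cellulases or xylanases and long consecutive blocks are set aside. They number 78 of the 9834 genes measured. A gene was a member when its mean level over the 3 Ku70 libraries was at least 500 FPKM (fragments per kilobase of gene, scaled to depth) and its R was -1 or lower, where R is log2((mean FPKM in MuPOX05503 + 1)/(mean FPKM in Ku70 + 1)). An R of -1 is a 2-fold lower level. Since members were chosen by these strain means, every fall of a member given below describes the choice, carries no test and supports nothing. Left out were POX09332 to POX09361, every run of 5 or more consecutive identifier numbers with R of -0.9 or lower throughout, and 17 identifiers listed as cellulases or xylanases, a listing that the files, which hold no names, cannot check.

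The study measured RNA in mycelium of P. oxalicum, a filamentous fungus that secretes enzymes against plant cell walls, and its stated interest is in protein kinases that act on cellulase and xylanase genes. Per the labels, both groups were 3 libraries each of about 1 g of hyphae grown for 24 h at 28 °C and 180 rpm in 100 mL of basic medium holding 1% Avicel, which is microcrystalline cellulose. The groups are the mutant of POX05503, called MuPOX05503, and the mutant of Ku70, a protein of non-homologous end joining whose loss is used in fungi to ease gene replacement. The growth protocol names MuKu70 spores, kept 6 d on potato-dextrose agar, for every library; whether MuPOX05503 also carries the Ku70 mutation, how many transformants stand behind each strain and whether the libraries of a strain came from separate cultures are not stated. Spread between libraries may therefore be technical only.

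Filamentous fungi on cellulose devote much of their transcription to secreted hydrolases, sugar uptake and the secretory pathway. Soluble sugars released from the polymer induce these genes, readily used sugars such as glucose repress them, and protein kinases are among the factors that pass nutrient signals to the transcription factors concerned. Abundant transcripts that move on cellulose can also encode proteins of housekeeping, cell surface or stress response, and an identifier alone does not tell these apart. The files pair no identifier with a product, and 0 of 9834 identifiers, members included, were found in RefSeq's gene table for assembly ASM172317v3. Members are thus ordered here by level, size of fall, spread, length and neighbours, not by function, and no sequence is shown.

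Total expected counts were 13653016 to 14263916 per library. POX05503 had a count of 0 in each MuPOX05503 library and of 539, 529 and 470 in Ku70 replicates 1, 2 and 3. Replicates 1, 2 and 3 stand for the letters F, S and T in the titles. All 78 members passed the filter on low values, their lowest count in any library was 101 (POX09040, MuPOX05503 replicate 1), and all 78 had whole counts in all 6 libraries, whereas 381 genes of the whole table had a count that was not whole (beyond 0.005) in at least 1 library. Reads shared between near-identical copies thus left no fractional count in a member.

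As a set, the members took a large share of the transcriptome's counts in Ku70 and a small one in the mutant. They took 11.9%, 12.8% and 12.2% of all counts in Ku70 replicates 1, 2 and 3, a mean of 12.3 ± 0.484% (SD, n = 3). In MuPOX05503 they took 3.39%, 2.71% and 2.999%, a mean of 3.03 ± 0.346% (SD, n = 3). The strain means differ 4.06-fold, and the libraries of the strains do not overlap, as the rule brings about. The RNA came from whole mycelium, so fewer hyphal cells with a transcript and less of it per cell cannot be told apart.

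In all, 351 genes reached 500 FPKM in Ku70, and 105 of them (29.9%) had R of -1 or lower, against 11.1% of the 8801 genes tested. The Ku70 mean is also the denominator of R, so a minimum on it favours a lower R. The difference between these shares was not tested and is partly set by the choice. Of the 105, 12 were listed identifiers, 4 lay in POX09332 to POX09361 and 11 in other consecutive runs. The members' R ran from -4.78 to -1.01, with a median of -1.78, a 3.43-fold lower level; the median R of all tested genes was 0.12. The 12 listed identifiers, out of 17, are those that met both thresholds, so their fall also describes the choice. Their median R was -2.83 (-4.79 to -2.33), and the 246 abundant genes above the R threshold had one of 0.09. All 78 members lay lower in every MuPOX05503 library than in every Ku70 library, as did 29.7% of tested genes. The lowest Ku70 library was 1.45 (POX02055) to 20.6 (POX09365) times the highest MuPOX05503 library, and for 57 members at least 2 times.

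**Figure D1:**
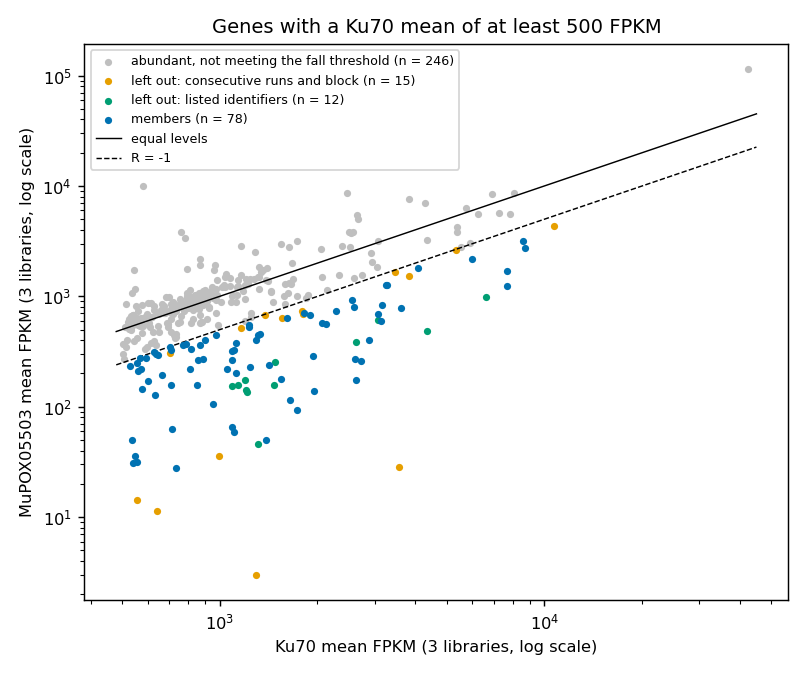
Mean FPKM in MuPOX05503 (vertical, log scale) against mean FPKM in Ku70 (horizontal, log scale), each over 3 libraries, for the 351 genes with a Ku70 mean of at least 500 FPKM. Points are genes; the 78 members lie at or below the dashed line of R = -1, by choice, and the 246 grey genes lie above it and gather near the solid line of equal levels.

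Just inside the R threshold were POX01832, POX02231 and POX04407, with R of -1.01, -1.02 and -1.03. Just outside it were POX02228, POX01181 and POX04792, with R of -0.99, -0.97 and -0.95. Nearest inside the 500 FPKM threshold were POX06803, POX07865 and POX03465, at 529, 538 and 539 FPKM in Ku70. Among falling genes just outside it, POX07408 was closest to the line at 498 FPKM. POX01693 and POX08200 followed at 482 and 479.9 FPKM. The membership near both lines therefore rests on small differences.

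The level of the members spanned more than an order of magnitude in Ku70, from 529 to 8728 FPKM with a median of 1112 FPKM. In Ku70, 45 members reached 1000 FPKM, 21 reached 2000 and 5 reached 5000. The 5 above 5000 FPKM were POX06307, POX06308, POX02073, POX06051 and POX04408. Of the 10 genes with the highest FPKM in Ku70, 4 were members, and of the 100 highest, 31. In MuPOX05503, members made up 0 of the 10 highest and 8 of the 100 highest. Their median level there was 295 FPKM, and 22 of 78 still had a mean of at least 500 FPKM, while 10 were below 100 FPKM.

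A pair of consecutively numbered genes headed the list. POX06307 was at 8242, 9222 and 8721 FPKM in Ku70 and 3320.5, 2115 and 2709 FPKM in MuPOX05503. POX06308, the next number, was at 7666, 9935 and 8236 FPKM in Ku70 and 3722, 2777 and 3056 FPKM in MuPOX05503. In Ku70 these were the third and the fourth gene of the transcriptome by mean FPKM, at 8728 ± 490.4 and 8612 ± 1180.5 FPKM (SD, n = 3). Both stayed above 2000 FPKM in every mutant library, and in both the mutant's replicate 1 was the highest and replicate 2 the lowest. Their R was -1.68 and -1.43.

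Next in level were 3 genes with unlike falls. POX02073 was at 8038, 7807 and 7216 FPKM in Ku70 and 1672, 1621 and 1751 FPKM in MuPOX05503, with close values within each strain and an R of -2.19. POX06051 was at 7265, 8428 and 7273 FPKM in Ku70 and 1365, 1118 and 1224 FPKM in MuPOX05503; at an effective length of 1678 bases it alone took 1.28% of all Ku70 counts, the most of any member. Its fall, R = -2.63, was the deepest among the 10 members of highest Ku70 level. POX04408 was at 5399, 6633 and 5891 FPKM in Ku70 and 2728, 1736 and 2036 FPKM in MuPOX05503, with an R of -1.46 and a mutant replicate 1 well above the other mutant libraries.

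The other 5 of the 10 lay between 3158 and 4094 FPKM in Ku70. POX02054 was at 3611, 4530.5 and 4141 FPKM in Ku70 and 2255, 1435 and 1749 FPKM in MuPOX05503, the smallest fall of the 10 (R = -1.17). POX02072, numbered directly before POX02073, was at 4215, 3377 and 3294 FPKM in Ku70 and 894, 641 and 799 FPKM in MuPOX05503. It fell by nearly the same factor as its neighbour, with R = -2.22. POX02605 was at 2881, 3584 and 3353 FPKM in Ku70 and 1603, 1007 and 1159 FPKM in MuPOX05503. POX07863 was at 3101, 3283 and 3368 FPKM in Ku70 and 1600.3, 971 and 1212 FPKM in MuPOX05503. In both of these the mutant's replicate 1 stood apart above its replicates 2 and 3. POX06820 was at 3325, 2992 and 3156 FPKM in Ku70 and 868, 818 and 836 FPKM in MuPOX05503, with little spread in either strain and an R of -1.91. Together the 10 held 4.55% of the Ku70 libraries' counts and 1.28% of the mutant's (means of 3 libraries). The 5 members with the highest mutant levels were all among them: POX06308, POX06307, POX04408, POX02054 and POX02073, at 3185, 2715, 2167, 1813 and 1681 FPKM.

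**Figure D2:**
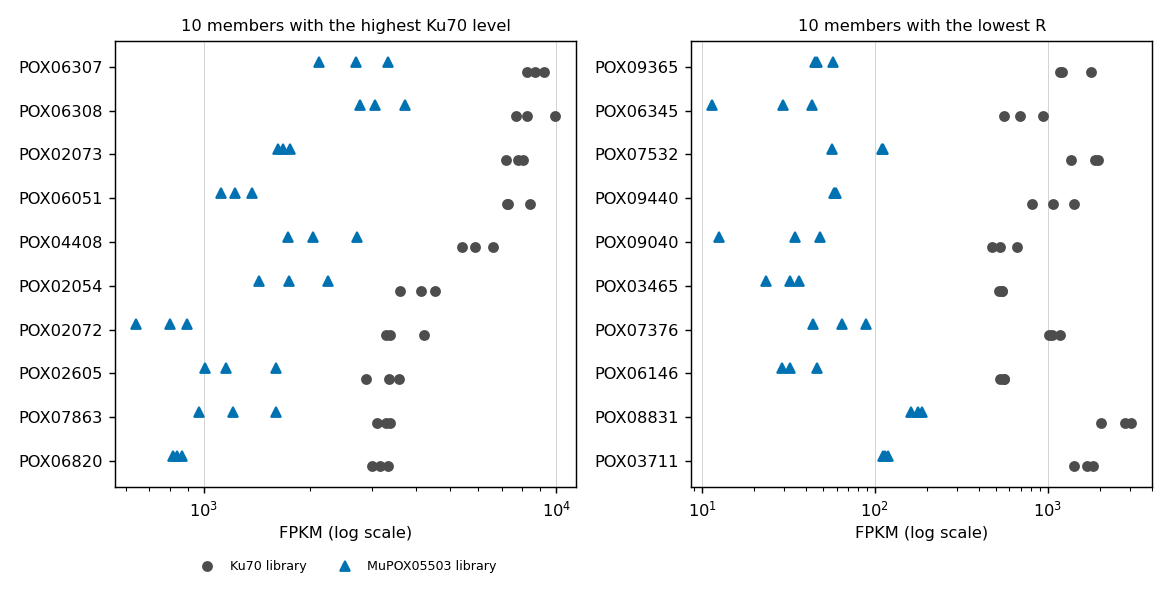
FPKM on a log scale (horizontal) in each of the 6 libraries for 20 members, each on its own line; grey circles are Ku70 libraries and blue triangles MuPOX05503 libraries. Left, the 10 members with the highest Ku70 level, with R from -2.63 to -1.17; right, the 10 with the lowest R, from -4.78 to -3.83, where the 3 triangles of POX06345 and POX09040 are spread widely.

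The deepest falls were in other genes. None of the 10 members with the lowest R was among the 10 of highest level (0 shared). POX09365 was at 1778, 1178 and 1212 FPKM in Ku70 and 57.2, 45.1 and 46.0 FPKM in MuPOX05503, the lowest R of all members at -4.78, a 27.6-fold lower mean; its number lies 4 beyond the end of the block POX09332 to POX09361, which the rule leaves out. POX06345 was at 559, 693 and 941 FPKM in Ku70 and 11.4, 43.3 and 29.5 FPKM in MuPOX05503. POX09040 was at 474, 530.4 and 668 FPKM in Ku70 and 12.5, 47.9 and 34.5 FPKM in MuPOX05503. These 2 had R of -4.65 and -4.09, and the mutant's replicate 1 was at 0.264 and 0.261 times its replicate 2, with coefficients of variation of 56.9% and 56.4%. Their Ku70 libraries remained far above every mutant library.

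POX07532 was at 1361, 1877 and 1964 FPKM in Ku70 and 56.6, 110.1 and 111 FPKM in MuPOX05503, with the mutant's replicate 1 well below the other mutant libraries. POX09440 was at 1429, 1070.4 and 814 FPKM in Ku70 and 59.0, 58.0 and 59.4 FPKM in MuPOX05503. Here the pattern was turned around, since the mutant libraries were almost equal while the Ku70 libraries ranged widely. POX07376 was at 1062, 1175 and 1025 FPKM in Ku70 and 43.7, 88.8 and 64.2 FPKM in MuPOX05503. POX03465 was at 525, 546 and 547 FPKM in Ku70 and 23.4, 32.4 and 36.5 FPKM in MuPOX05503. The R of these 4 genes was -4.21, -4.21, -4.03 and -4.09. POX06146 was at 563, 556 and 528 FPKM in Ku70 and 46.0, 29.1 and 32.1 FPKM in MuPOX05503; it is numbered between another member, POX06145, and a listed identifier, POX06147. POX08831 was at 2029.9, 2809 and 3055 FPKM in Ku70 and 187, 177 and 162 FPKM in MuPOX05503, and POX03711 was at 1426, 1686 and 1823 FPKM in Ku70 and 119, 114 and 112 FPKM in MuPOX05503. Both of these combined a high Ku70 level with narrow spread in the mutant, at R of -3.90 and -3.83.

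By size of fall, 46 members were 2- to 4-fold lower, 15 were 4- to 8-fold lower, 10 were 8- to 16-fold lower and 7 more than 16-fold lower, each by R. The first class took 5.84% of all Ku70 counts and 2.11% of the mutant's. The 4- to 8-fold class went from 4.07% to 0.737%, and the more than 16-fold class from 0.641% to 0.0303%. Most of the drop in the members' share thus lay in genes less than 8-fold lower. The median Ku70 level was 1031, 1415, 1597 and 1087 FPKM in the 4 classes, so a deeper fall did not go with a steadily higher or lower level. On the scale of edgeR with TMM factors (trimmed mean of M values, a scaling that sets the bulk of genes level), the members' median log2 fold change was -1.89, beside 0.01 for all tested genes; that of POX06307 was -1.80 (SE 0.16) and that of POX09365 -4.93 (SE 0.21).

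What the rule did not use is the spread of a member within its strain. In Ku70 the members' coefficients of variation over the 3 libraries had a median of 10.1%, close to the 9.08% of the 246 other abundant genes. In MuPOX05503 the median was 14.7% for members and 5.27% for the other abundant genes. Of 78 members, 48 (61.5%) varied more in the mutant than in Ku70, against 84 of 246 (34.1%). For the 12 listed identifiers the mutant's median was 18.6%, and for all tested genes 9.37%. These are descriptions of 3 libraries per strain, and the difference between the sets was not tested. The members' mutant levels are lower than those of the other abundant genes, and the part of level in the wider spread was not tested.

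Within Ku70 the lowest coefficients of variation were those of POX04683, POX03465 and POX01832, at 1.83%, 2.32% and 3.16%. The widest were those of POX07870, POX09440 and POX06345, at 28.5%, 28.0% and 26.6%. POX04683 was at 1274, 1292 and 1321 FPKM in Ku70 and 438, 368 and 407 FPKM in MuPOX05503, with nearly equal Ku70 libraries. POX07870 was at 1680.4, 2206 and 2979 FPKM in Ku70 and 536, 947 and 707 FPKM in MuPOX05503. In it the highest Ku70 library was replicate 3 and the highest mutant library replicate 2, and the strains still did not overlap.

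The mutant libraries differed from each other in a shared way across many members. The order replicate 1, then 3, then 2 from high to low was found in 42 of 78 members (53.8%), in 52 of 246 other abundant genes (21.1%), in 2535 of 8801 tested genes (28.8%) and in all 12 of the listed identifiers. Replicate 1 was at least 1.5 times replicate 2 in 17 members (21.8%), in 6 other abundant genes (2.44%), in 573 tested genes (6.53%) and in 4 of the 12 listed identifiers. Among the 10 members of highest Ku70 level, 9 had the order 1, 3, 2, and among the 10 of lowest R, 2 had it. Replicate 1 was the highest mutant library in 46 of 78 members (59.0%), in 32.1% of other abundant genes and in 46.5% of tested genes. The members' falls were therefore shallowest, in most cases, in the same mutant library.

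A smaller number of members went the other way. In 7 of 78 (8.97%) the mutant's replicate 2 was at least 1.5 times its replicate 1, as in 12 of 246 other abundant genes (4.88%), in 462 tested genes (5.27%) and in 0 of the 12 listed identifiers. These members, singled out after their values were seen, were POX06345, POX09040, POX07376, POX07532, POX02960, POX07870 and POX02483, and 4 of them are among the 10 with the lowest R. POX02960 was at 536, 553 and 580.5 FPKM in Ku70 and 172, 313 and 268 FPKM in MuPOX05503. POX02483 was at 591, 723 and 817 FPKM in Ku70 and 121, 187 and 161 FPKM in MuPOX05503. In both, as in POX06345 and POX09040, the lowest mutant library was replicate 1, which was the highest for most members. In these 7 members the mutant libraries deviated the other way from most members, as the way they were picked brings about. The difference between the shares of the sets was not tested. Whether growth, culture or library preparation differed between the mutant libraries is not recorded in the labels, and its part in these values was not tested.

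**Figure D3:**
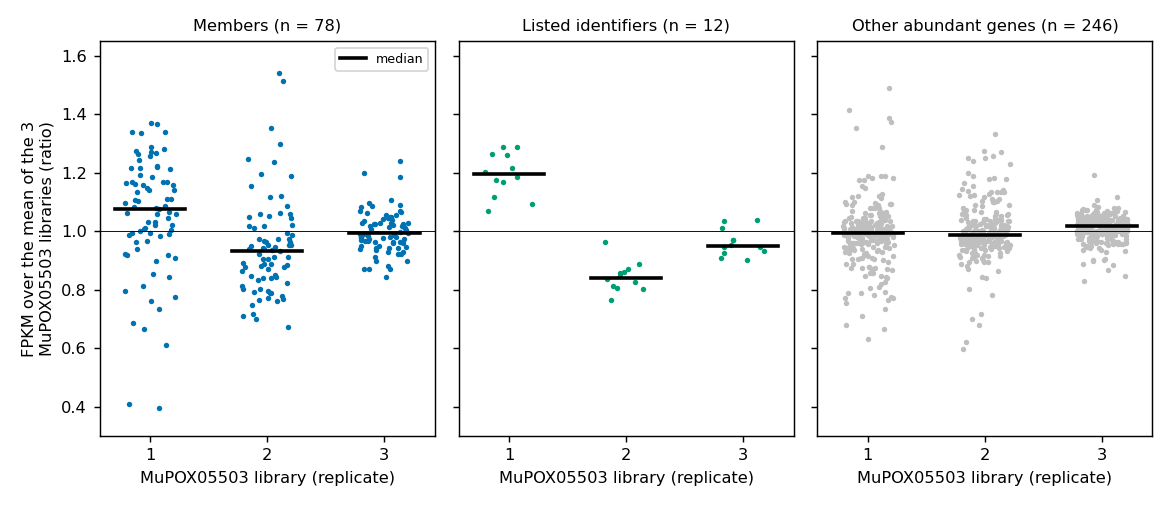
Level of each gene in each MuPOX05503 library as a ratio to its mean over the 3 MuPOX05503 libraries (vertical), for members, for the 12 listed identifiers and for the 246 other abundant genes; points are genes, spread sideways at random, and bars are medians. For members the medians are 1.08, 0.933 and 0.993 in replicates 1, 2 and 3, for the listed identifiers 1.19, 0.841 and 0.949, and for the other abundant genes 0.995, 0.986 and 1.02.

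Gene length, as implied by each count and its FPKM, is not named in the rule, but FPKM divides the count by length, so the 500 FPKM minimum bears on it. The members' effective length, which is somewhat shorter than the transcript, had a median of 797 bases, with quartiles of 517 and 1231 bases. Other abundant genes had a median of 579 bases and all tested genes with a usable count one of 1269 bases. By the median, members were longer than the other abundant genes, which met the same minimum; this difference was not tested. The distance of both sets from all genes is partly set by the minimum. The longest were POX07865, POX04515 and POX07863 at 4949, 3033 and 1803 bases, and the shortest POX00665 and POX07582 at 180 and 214 bases, then POX07532 and POX03796, both at 249 bases. POX07865, with a Ku70 level near the 500 FPKM line, was at 558, 580.1 and 476 FPKM in Ku70 and 68.9, 33.8 and 48.5 FPKM in MuPOX05503. POX00665, the shortest, was at 2432, 2823 and 2553 FPKM in Ku70 and 346, 229 and 234 FPKM in MuPOX05503. By class of fall the median effective length was 663, 828, 1375 and 809 bases, from the mildest to the deepest.

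Some members carry consecutive numbers. Runs of 5 or more were left out, so only shorter groups can appear. There were 7 pairs of members with adjoining numbers, which hold 14 of the 78. The R values within a pair differed by 0.0276 to 0.505, with a median of 0.250. Their Ku70 levels differed 1.01-fold to 10.6-fold, with a median of 2.12-fold. Members whose numbers do not adjoin were not compared in this way. POX02072 and POX02073 were closest in R (-2.22 and -2.19). POX06145 and POX06146 were farthest apart, at -3.40 and -3.90, and at 2721 ± 178 and 549 ± 18.4 FPKM in Ku70 (SD, n = 3). POX04407 and POX04408 had the widest gap in level, with 566 ± 33.9 FPKM against 5974 ± 621 FPKM in Ku70 (SD, n = 3). The other pairs were POX01694 with POX01695, POX02054 with POX02055, POX03796 with POX03797 and POX06307 with POX06308. In 5 of the 7 pairs both genes had the same order of the mutant libraries, and likewise in 5 of 7 for the Ku70 libraries. Since 53.8% of all members shared 1 order of the mutant libraries, members that do not adjoin can match too. No such pairs were counted.

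POX03796 was at 2786, 2592 and 2268 FPKM in Ku70 and 942, 849.7 and 972 FPKM in MuPOX05503. POX03797 was at 1993, 1771 and 1701 FPKM in Ku70 and 746, 659 and 709 FPKM in MuPOX05503. Both were short, at 249 and 270 bases of effective length, and fell by similar factors. Counting genes of any level with R of -0.9 or lower, 33 members stood alone, 18 lay in stretches of 2 numbers, 18 in stretches of 3 and 9 in stretches of 4. Of the members, 3 adjoin a listed identifier, namely POX05915, POX06146 and POX08485. POX08485 was at 1181, 1225 and 1323 FPKM in Ku70 and 262, 202 and 225 FPKM in MuPOX05503, and POX05915 was at 1675, 2182 and 1953 FPKM in Ku70 and 284, 290.4 and 282 FPKM in MuPOX05503. Their R, -2.43 and -2.76, lies beside an R of -2.33 for POX08484 and -3.03 for POX05916.

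Genes numbered directly before or after a member, and not members themselves, were tested with edgeR's quasi-likelihood test in a fit across all genes, with Benjamini-Hochberg adjustment over 8801 genes; calls were made where that adjusted p was under 0.05. The rule chose no neighbour, but it bears on which genes count as one: an adjoining gene with at least 500 FPKM in Ku70 and R of -1 or lower is a member and not counted here, unless it was left out by name or run, and members lie in no long run. Of 138 neighbours 130 were tested, and 69 of them (53.1%) fell, against 32.6% of all tested genes. Another 27 (20.8%) rose, against 31.9% of all. The neighbours' median log2 fold change was -0.45, beside 0.01 for all tested genes. Without the neighbours that the rule leaves out by name or run, 66 of 127 fell and 27 rose. Around the 246 other abundant genes, 130 of 423 neighbours fell (30.7%) and 137 rose (32.4%), near the share of all genes. No test was made of the difference between these shares.

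The share of falling genes was smaller farther from a member. At a distance of 2 numbers 49.3% of tested genes fell, at 3 41.6%, at 4 34.0% and at 5 30.9%. The rising share was 24.6%, 25.5%, 29.1% and 40.3% at the same distances, the last above the 31.9% of all tested genes. Of the 71 members whose neighbouring numbers on both sides were tested, 27 had a falling gene on both sides, other members included, and 15 on neither. Adjoining members fall by the rule, and no such count was made for all genes or around the other abundant genes. These counts therefore cannot be read as an excess. Whether identifier numbers follow the chromosomes is not stated. Overlap of transcripts could not be looked at without coordinates, and the strand setting of the counting is not given, so reads of a member and an overlapping neighbour cannot be told apart. The neighbours' median level in Ku70 was 28.9 FPKM, beside 25.5 FPKM for all tested genes. It was far under that of the members, which the rule holds at 500 FPKM or more.

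**Figure D4:**
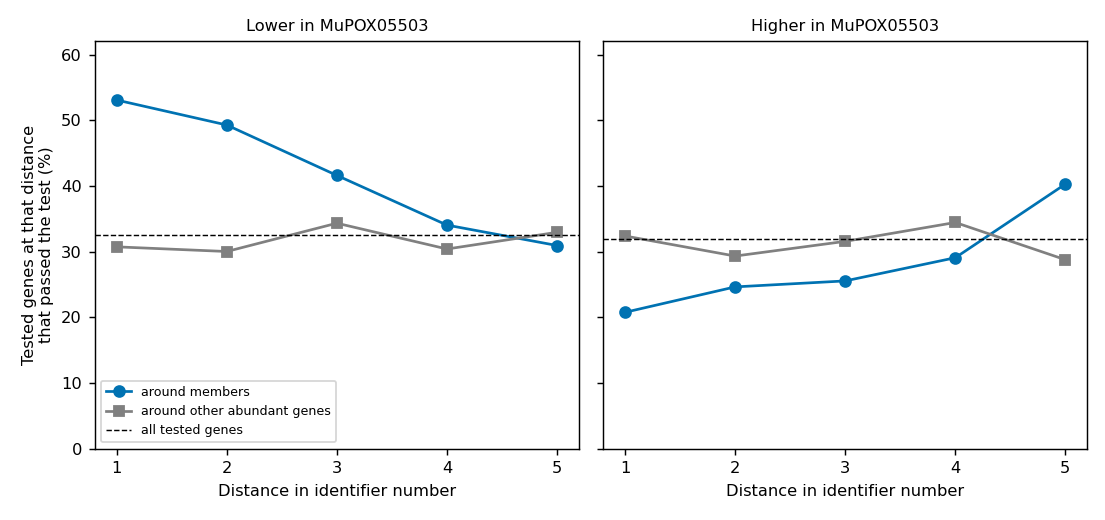
Share of tested genes that passed the edgeR test as lower (left) or higher (right) in MuPOX05503, by distance in identifier number, around members (blue circles) and around the 246 other abundant genes (grey squares); the dashed lines are the shares of all tested genes, 32.6% and 31.9%. Around members the falling share goes from 53.1% at distance 1 to 30.9% at distance 5, and the rising share from 20.8% to 40.3%. By choice, members lie in no run of 5 or more falling numbers, which bears on the shares at the larger distances.

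Single neighbours, named after their values were seen, show how far they can follow or leave a member. POX07375, beside POX07376, was at 350.4, 476 and 379 FPKM in Ku70 and 5.63, 8.60 and 5.38 FPKM in MuPOX05503, and fell by edgeR's test (log2 fold change -6.05 with SE 0.22 and adjusted p = 1.83e-08). It changed more than the member itself, whose log2 fold change by edgeR was -4.16. POX07864, between POX07863 and POX07865, was at 357, 401 and 369 FPKM in Ku70 and 74.8, 45.7 and 58.6 FPKM in MuPOX05503, and fell too (edgeR, log2 fold change -2.77 with SE 0.17 and adjusted p = 4.24e-07). Its fall lies between those of the members on either side, whose log2 fold changes by edgeR were -1.48 and -3.53. POX03798, directly after the pair POX03796 and POX03797, was at 0, 0 and 0.540 FPKM in Ku70 and 84.1, 54.3 and 65.6 FPKM in MuPOX05503, nearly silent in Ku70 and expressed in the mutant (edgeR, log2 fold change 8.22 with SE 0.44 and adjusted p = 2.03e-07; a fitted value that depends on the prior count). POX08079, beside POX08080, rose from 333 ± 94.2 to 1188 ± 188 FPKM (SD, n = 3), by edgeR with adjusted p = 9.63e-05 and a log2 fold change of 1.73 with SE 0.22. POX08080 itself was at 621, 671 and 646 FPKM in Ku70 and 283, 298 and 297 FPKM in MuPOX05503, so adjoining numbers moved in opposite directions here.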

How the data were processed

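RNA of mycelium was sequenced in 6 libraries, 3 per strain, as the labels state. The authors' deposit is 1 table of 9834 genes for each library; per the file headers each row holds an expected count, an estimated number of reads that is not normalized, and an FPKM value, scaled by the authors to gene length and depth. The submitters' processing notes name RSEM 1.2.12, Bowtie2 2.1.0, BWA 0.7.10-r789 and DESeq2 without saying which step each served. Not given in the sources used here: genome build, gene models, and whether counting used strand.

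The rule for members was applied to the deposited FPKM values. Expected counts, rounded, were tested with edgeR 4.0.16 in R 4.3.3 (TMM factors, quasi-likelihood test, strain as the only term, Benjamini-Hochberg adjustment) over the 8801 genes that reached 1 FPKM in 3 or more libraries. Effective length is the count per FPKM and depth, as a median over libraries with at least 20 counts. Totals of 13653016 to 14263916 counts limit the precision of low genes. A floor or spread worked out from counts alone, without molecular identifiers, would cover counting error only. The SDs, coefficients of variation and SEs given here are taken between libraries and hold more than that. Fits were also run on simulated data, with a dispersion common to all genes and far fewer changed genes than were called here. That run therefore does not cover the setting of these calls. Alternatives used limma 3.58.1, DESeq2 1.42.0, other scaling, filters and pseudocounts, left-out libraries and a block on the title letters. No pair of libraries of a strain agreed as closely as counting noise (chi-square per degree of freedom of 10.2 to 46.0).

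Genes named were POX05503, as the check of the deletion, and among the members the 10 of highest Ku70 level, the 10 of lowest R, the 5 of highest mutant level, those at both thresholds, the widest and narrowest in spread, the longest and shortest, and consecutive pairs. A few others were chosen after their values were seen. The members, lists and comparisons were chosen with earlier results of these data known.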

Additional observations from a re-analysis of the deposited data

How the results depend on the processing

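Direction was kept by every member and by the 10 neighbours looked at under the alternative fits run. Of 1014 log2 fold changes of the 78 members, 0 reversed, as the choice of members makes likely. Of 149 values of the 10 neighbours, 0 changed direction or side of the threshold. These neighbours, not all of them named above, were picked with their values known, which makes this likely too. The number of members depends on the level asked for, with 140 at a Ku70 mean of at least 250 FPKM and 45 at 1000 FPKM. It was 72 to 82 when each library was left out, 73 and 76 with pseudocounts of 0 and 10 in R, 86 with edgeR's log2 fold change in place of R (the same 78 among them) and 89 with the consecutive runs kept. The members' share of the summed FPKM was 14.3% in Ku70 and 3.69% in MuPOX05503, and their share of counts without each library 12.1% to 12.5% and 2.85% to 3.20%. Their median log2 fold change was -1.76 with limma on log2(FPKM + 5), -1.78 with library totals and -1.93 to -1.85 without each library; the cause was not tested. Without TMM factors the median of all tested genes moved from 0.01 to 0.12 on the log2 scale.

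Falling neighbours numbered 62 to 70 and rising ones 24 to 31 under all alternatives, but the number tested differed. With a filter of 5 FPKM in at least 3 libraries, 62 of 108 fell (57.4%) and 24 rose (22.2%). The shares of all tested genes were then 33.5% and 32.7%. Without a filter 68 of 138 fell (49.3%) and 27 rose (19.6%), beside 29.7% and 30.0% of all. The other alternatives tested 130 neighbours. With library totals 47.7% of tested neighbours fell and 23.8% rose, beside 27.7% and 38.0% of all tested genes. Among all genes, leaving out each library gave 2522 to 2797 lower and 2507 to 2806 higher. A fit with a replicate block on the title letters gave 2800 lower and 2729 higher genes, 67 lower and 27 higher neighbours and a members' median of -1.89. The correlation of deviations between libraries that share a letter was 0.00, -0.03 and -0.02, which does not meet the bar set for pairing (over 0.1 in every pair); what the letters mark is not stated. Depth limits the members little, since their lowest count was 101.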
